A study of Mus musculus with 5 samples.

Results

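A liver tumor of a 12M mutant mouse was compared with the non-tumor section of the same liver, with 1 library a side. All genes with over 1 FPKM in either library were taken, which gave 12063 genes of the 46095 gene records in the table. FPKM counts the fragments of a gene per kilobase of its length and per 1000000 fragments of the library. The mice were C57BL/6. In HKO mice, both Srsf2 alleles are flanked by loxP sites and an Alb-Cre transgene deletes them in hepatocytes. The tumor section carries no genotype in its labels, but the same animal number as the non-tumor section, which is labelled as a mutant. The codes of both start with M13, and the labels give the age as 12 months. Libraries of a 12M WT, a 2M HKO and a 2M WT liver, with 1 animal each, are given as further levels. WT stands for mice with unrecombined loxP-flanked alleles by the study's methods.

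The libraries held 36102895 fragments for the tumor and 35310555 for non-tumor tissue, as worked back from the FPKM values, and 34969834 to 36104176 over all 5. There was no replicate of either section, so no p-values are given, and a difference between these libraries cannot be told apart from a difference between 2 pieces of any such liver. Intervals are 95% exact binomial intervals of the ratio of fragments and cover counting error only. Of low fragment counts, 58.8% to 61.0% were even, and if both mates of some pairs were counted, the fragment counts and fold bounds are too high and the intervals too narrow. A gene is called higher above a log2 ratio of 1 and lower beneath -1, with the ratio taken on FPKM with 0.1 added, which understates the ratio of genes with low values. Srsf2 had 15.6 FPKM in the tumor, against 17.6 in non-tumor tissue, and 15.7 in the 12M WT, 22.7 in the 2M HKO and 14.6 in the 2M WT liver, with both alleles' transcripts and all cell types included. The hepatocyte marker Alb, the serum albumin gene, had 28781 FPKM in the tumor, against 35874 in non-tumor tissue, so hepatocyte RNA was abundant in both sections.

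Hepatocytes divide their work along the lobule. Cells near the portal vein make urea and glucose and cells near the central vein, where Wnt signals act, make glutamine, bile acids and many cytochrome P450 enzymes. They are fed by sinusoids, whose endothelium is open and lacks a continuous basement membrane, and are patrolled by Kupffer cells, the resident macrophages. Hepatocellular tumors are known to draw on arterial blood and to replace sinusoids by closed vessels with a basement membrane. In bulk tissue, fewer cells of a type and less RNA per cell cannot be told apart, and this holds for every gene below.

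Of the 12063 genes, 2433 (20.2%) were higher in the tumor and 1052 (8.72%) were lower. These shares are the background for the counts of every gene list below. The median log2 ratio was 0.26, with 5% of genes under -1.52 and 5% over 2.61. After centring by 9099 genes with over 1 FPKM in all 5 libraries, which moved ratios by 0.17, the counts were 1972 higher and 1322 lower. Centred by the median of each gene's own chromosome, they were 1738 and 1302, so that 57.2% of called genes were higher, against 69.8% without centring. Over 1 FPKM in the tumor only were 1269 genes, and 568 in non-tumor tissue only. At the threshold, Zfp235 was just inside with 1.00023 FPKM in the tumor, against 0.536 in non-tumor tissue, and Rps23-ps2 just outside with 0.999 and 0.738. Both libraries put about the same share of fragments into their 10 most represented genes, 19.9% in the tumor, against 20.2% in non-tumor tissue. Mitochondrial genes held 3.38% of tumor fragments and 3.13% of non-tumor fragments. Among 7618 genes with over 5 FPKM in either section, 17.7% were higher and 8.43% lower. The tumor was set against the 12M WT liver too, where 31.5% of genes were higher and 8.41% lower, and for the non-tumor section these shares were 12.7% and 1.53%.

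**Figure D1:**
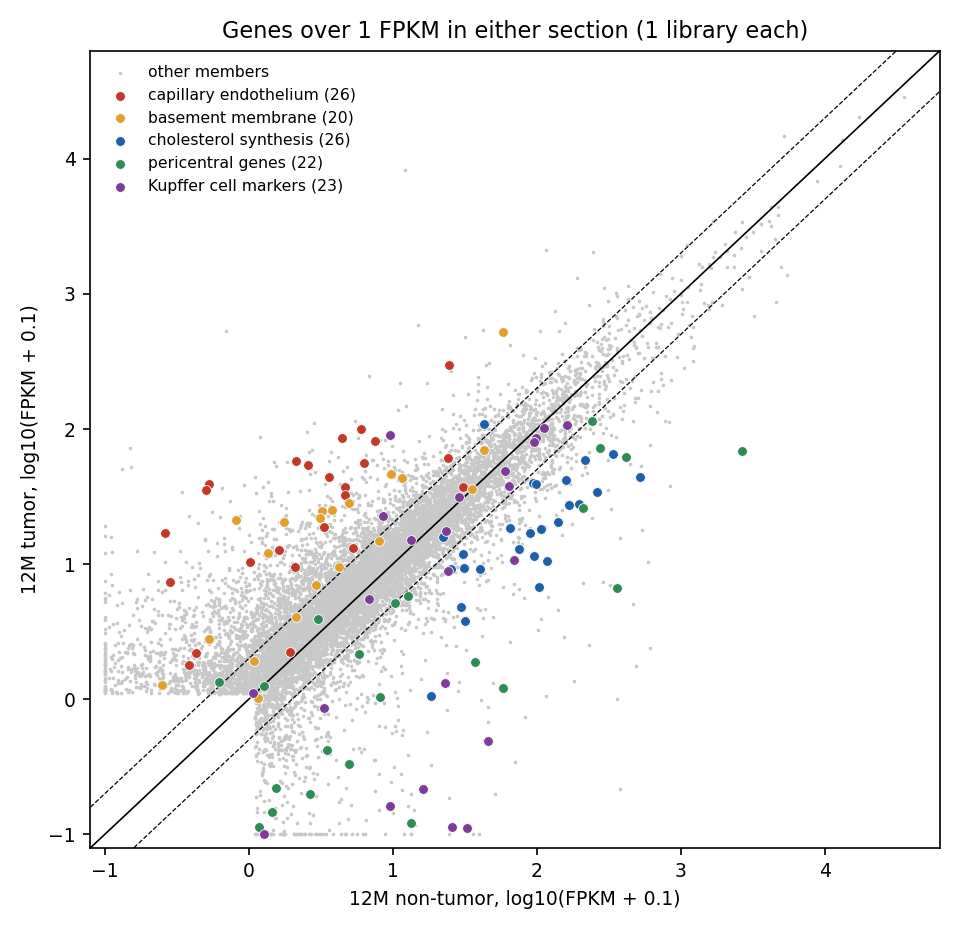
Each point is 1 of 12063 genes, with log10 of FPKM plus 0.1 of the tumor on the vertical and of non-tumor tissue on the horizontal axis. The solid line marks equal levels and the dashed lines a 2-fold difference, and members of 5 gene lists are coloured. Capillary endothelium and basement membrane genes lie above the upper line, and cholesterol synthesis and pericentral genes below the lower line, with 2, 6, 2 and 3 exceptions.

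Genes of cholesterol synthesis were lower in the tumor through most of the pathway. Of 26 genes on the list, 24 were lower and 1 was higher, where 8.72% and 20.2% of all genes were. The list had a median log2 ratio of -2.47, beside 0.26 for all genes. The pathway builds cholesterol from acetyl-CoA and is switched on by the transcription factor SREBP-2 when membranes are short of sterol. SREBP-2 acts together with NF-Y, a factor that binds CCAAT boxes.

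For this reason the promoter windows of 4 pathway genes that hold CCAAT are shown, from 250 bases before to 50 after the start in RefSeq GRCm38.p6, with CCAAT on either strand (read as ATTGG on the other) and the sterol element TCACNCCAC in capitals. They are Hmgcs1 at chr13:119690101-119690400 on the + strand, Idi1 at chr13:8885356-8885655 on the + strand, Lss at chr10:76531355-76531654 on the + strand and Msmo1 at chr8:64733529-64733828 on the - strand.
Hmgcs1: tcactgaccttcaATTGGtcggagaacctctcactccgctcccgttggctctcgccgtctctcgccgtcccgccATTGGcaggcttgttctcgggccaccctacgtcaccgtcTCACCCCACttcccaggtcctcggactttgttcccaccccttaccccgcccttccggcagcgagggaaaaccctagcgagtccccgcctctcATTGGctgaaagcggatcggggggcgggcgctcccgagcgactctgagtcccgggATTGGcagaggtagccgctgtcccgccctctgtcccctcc
Idi1: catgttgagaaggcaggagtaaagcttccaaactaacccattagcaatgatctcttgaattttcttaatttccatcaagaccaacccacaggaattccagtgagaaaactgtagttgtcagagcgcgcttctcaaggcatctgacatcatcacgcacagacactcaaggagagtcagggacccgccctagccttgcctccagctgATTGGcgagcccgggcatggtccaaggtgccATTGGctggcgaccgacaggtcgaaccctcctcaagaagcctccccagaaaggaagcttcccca
Lss: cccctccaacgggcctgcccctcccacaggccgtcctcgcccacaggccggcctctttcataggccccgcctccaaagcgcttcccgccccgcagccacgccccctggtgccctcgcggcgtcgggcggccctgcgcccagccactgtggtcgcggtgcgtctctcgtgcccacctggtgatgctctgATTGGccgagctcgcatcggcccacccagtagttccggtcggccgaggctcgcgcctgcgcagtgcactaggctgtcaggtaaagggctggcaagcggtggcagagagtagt
Msmo1: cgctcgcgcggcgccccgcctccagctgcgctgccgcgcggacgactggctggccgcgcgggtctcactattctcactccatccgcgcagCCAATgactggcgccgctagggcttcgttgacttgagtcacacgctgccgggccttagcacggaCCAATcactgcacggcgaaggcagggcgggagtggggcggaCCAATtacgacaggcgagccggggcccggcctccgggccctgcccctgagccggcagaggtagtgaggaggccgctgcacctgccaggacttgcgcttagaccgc

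In these windows CCAAT stood 4 times in Hmgcs1, 2 times in Idi1, 1 time in Lss and 3 times in Msmo1, and TCACNCCAC stood 1 time, in Hmgcs1, with no overlap between the motifs. Of 18 list genes with an entry in the promoter table, 17 held CCAAT, against 37.4% of all 32851 promoters and 41.1% of 27025 genes with at least 1 entry. Of the 17, 15 were lower in the tumor. Since 24 of all 26 list genes were lower, this count does not link the motif to the levels. TCACNCCAC stood in 1 of 18, against 1.24% of all promoters. Both motifs were searched on both strands and were kept after others had been looked at. A match is a stretch of letters and not a shown binding site.

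Idi1, the isopentenyl diphosphate isomerase, had 0.956 FPKM in the tumor, against 18.4 in non-tumor tissue, and was 19.3-fold lower (95% interval 15.7 to 23.8). For Fdps, the farnesyl diphosphate synthase, the levels were 44.3 FPKM in the tumor, against 523 in non-tumor tissue, and 301 in the 12M WT, 242 in the 2M HKO and 158 in the 2M WT liver. Pmvk, the phosphomevalonate kinase, stood at 10.4 FPKM in the tumor, against 119 in non-tumor tissue, and Hmgcs1, the HMG-CoA synthase, at 28 FPKM in the tumor, against 197 in non-tumor tissue. In each of these genes the tumor lay far below the non-tumor section, and for Hmgcs1 the 2M WT liver was lower still, at 17.4 FPKM.

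The later sterol enzymes were lower too. Lss, which closes the sterol ring system, had 3.66 FPKM in the tumor, against 31.7 in non-tumor tissue and was 8.66-fold lower (95% interval 8.06 to 9.31). Msmo1 and Nsdhl, which act in the removal of methyl groups, were 7.6-fold lower (95% interval 7.28 to 7.95) and 8.47-fold lower (95% interval 7.91 to 9.09). Cyp51, the lanosterol demethylase, had 18 FPKM in the tumor, against 107 in non-tumor tissue. The 2 feedback genes of the pathway went apart. Insig1, which holds SREBP in the endoplasmic reticulum and is itself a target of it, was 3.67-fold lower (95% interval 3.56 to 3.78). Insig2, whose product does the same but which is not known as a sterol-induced gene, was 2.53-fold higher (95% interval 2.44 to 2.62), with 109 FPKM in the tumor, against 43 in non-tumor tissue. Insig2 was the 1 gene of the list that was higher.

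The other livers place the sections. Over the list, the median log2 ratio was -1.34 for the tumor over the 12M WT liver and 0.93 for non-tumor tissue over the same liver, beside 0.51 and 0.22 for all genes. The tumor was the lowest of the 5 libraries in 20 of 26 genes, where it was so for 18.2% of all genes, and the non-tumor section was called higher than 12M WT in 12 of them, against 12.7% of all genes. These ratios share libraries and are set side by side only.

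Fatty acid synthesis, the related pathway under SREBP-1, was lower as well. Of 20 genes, 15 were lower and 1 was higher, with a median log2 ratio of -1.80. Fasn, the fatty acid synthase, had 23.2 FPKM in the tumor, against 136 in non-tumor tissue and was 5.87-fold lower (95% interval 5.73 to 6.01). Acacb, an acetyl-CoA carboxylase, was 16.3-fold lower (95% interval 14.9 to 17.9), and Thrsp, a lipogenic nuclear protein, was 10.1-fold lower (95% interval 9.63 to 10.5). Scd1, the liver's main stearoyl-CoA desaturase, had 690.1 FPKM in the tumor, against 3217 in non-tumor tissue, and 2156 in the 12M WT, 1554 in the 2M HKO and 1722 in the 2M WT liver. Its paralog Scd2, known from brain and fetal tissues, was the gene that was higher, with 111 FPKM in the tumor, against 45 in non-tumor tissue, and 1.14 in the 12M WT, 49.5 in the 2M HKO and 0.713 in the 2M WT liver. The desaturase genes thus lay in opposite directions, and Scd2 was near 1 FPKM in the WT livers. CCAAT stood in 13 of 18 genes of this list with a promoter entry. Of these 13, which include Pnpla3 under the minimum of 1 FPKM, 8 were lower.

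Pericentral genes were lower in the tumor almost without exception. Of 22 genes, 19 were lower and 1 was higher, with a median of -2.99. The tumor was the lowest of the 5 libraries in 17 of them. The glutamate transporter gene Slc1a2 had 0.0215 FPKM in the tumor, against 13.3 in non-tumor tissue, and 22 in the 12M WT, 3.08 in the 2M HKO and 15.1 in the 2M WT liver, which is 618-fold lower (95% interval 325 to 1351) from 9 and 5436 fragments. Oat, the ornithine aminotransferase, was 54.8-fold lower (95% interval 50.2 to 60), and Lhpp, a phosphatase gene, 52.6-fold lower (95% interval 41.1 to 68.4). Glul, the glutamine synthetase gene of the innermost ring of hepatocytes, had 62.1 FPKM in the tumor, against 418 in non-tumor tissue, and 373 in the 12M WT, 106 in the 2M HKO and 238 in the 2M WT liver. Of the pericentral P450 genes, Cyp2e1 had 68.2 FPKM in the tumor, against 2689 in non-tumor tissue, and Cyp1a2 had 26 FPKM in the tumor, against 209 in non-tumor tissue.

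Targets, a receptor and a ligand of Wnt signaling were lower in the tumor. Axin2, a feedback inhibitor, had 0.0999 FPKM in the tumor, against 2.57 in non-tumor tissue, and 2.07 in the 12M WT, 0.756 in the 2M HKO and 1.39 in the 2M WT liver. Lgr5, a receptor for R-spondins, had 0.047 FPKM in the tumor, against 1.35 in non-tumor tissue, and Nkd1, another inhibitor, 0.122 FPKM in the tumor, against 1.46 in non-tumor tissue. Tbx3, a transcription factor and Wnt target in liver, was 21.2-fold lower (95% interval 15.7 to 29.2). The R-spondin gene Rspo3, which endothelium of the central vein makes, had 0.37 FPKM in the tumor, against 1.78 in non-tumor tissue. All 5 were lowest in the tumor of the 5 libraries. Over the 21 measured genes of the Wnt list, 2 were higher and 7 lower. The higher ones include Sfrp5, a secreted inhibitor, with 262 fragments in the tumor, against 0 in non-tumor tissue, at least 85.4-fold higher at a floor of 3 fragments.

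Periportal genes were called higher about as often as all genes, of which 20.2% were higher, but were called lower more often than the 8.72% of all genes. Of 20 genes, 4 were higher and 6 lower, and the median log2 ratio was -0.28. Pck1, the gluconeogenic enzyme, was 22.4-fold lower (95% interval 21.6 to 23.2). The urea cycle genes Ass1, Arg1 and Cps1 were 3.8-fold, 2.82-fold and 2.25-fold lower, and the record of Cps1 lies on an alternate scaffold of the assembly. Apoa4, an apolipoprotein gene, was 2.07-fold higher (95% interval 2.05 to 2.09), Hsd17b13, of a lipid droplet enzyme, 2.23-fold higher (95% interval 2.19 to 2.27), and Ctsc, a lysosomal protease gene, 5.18-fold higher (95% interval 4.97 to 5.4). Over the urea cycle and glutamine list, 12 of 15 genes were lower and 1 higher.

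**Figure D2:**
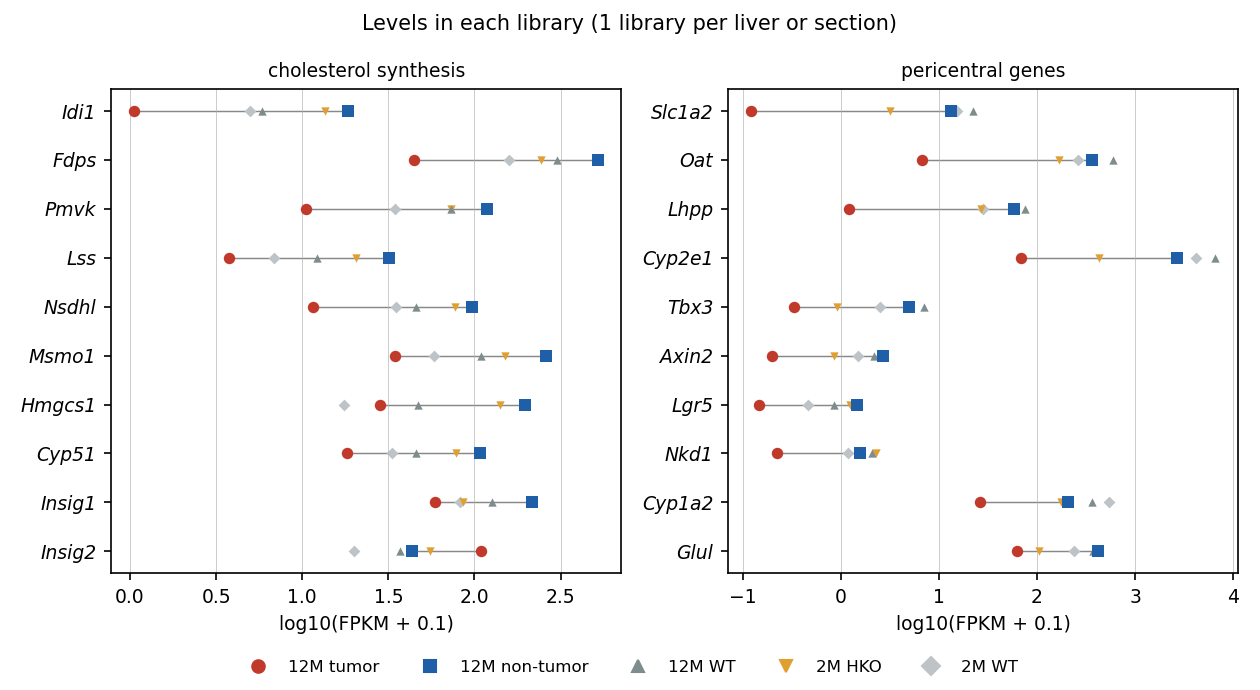
Levels of 10 cholesterol synthesis genes and 10 pericentral genes as log10 of FPKM plus 0.1, with 1 symbol for each of the 5 libraries and a line joining tumor and non-tumor tissue. The tumor is the lowest of the libraries in all rows but those of Hmgcs1, where the 2M WT liver is lower, and Insig2, where the tumor is the highest.

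Genes of detoxification and bile acid handling were lower in large part, and those that males express more were lowest. Among P450 genes of families 1 to 3, 13 of 28 were lower and 2 higher, where 8.72% and 20.2% of all genes were. Cyp2c67 and Cyp2c29 were 121-fold lower (95% interval 93.9 to 159) and 39.6-fold lower (95% interval 36.1 to 43.5). Cyp2d9, Cyp2d26 and Cyp2d10, of a family on chromosome 15, were not called, at log2 ratios of 0.13, 0.29 and 0.87. Cyp2b10, the classical target of the nuclear receptor CAR, was 79-fold higher (95% interval 50.4 to 132), with 22.6 FPKM in the tumor, against 0.287 in non-tumor tissue, while Nr1i3, which encodes CAR, was 23-fold lower (95% interval 18.9 to 28.3), with 1.24 FPKM in the tumor, against 28.6 in non-tumor tissue. Thus the receptor and its target lay in opposite directions. P450 and transferase genes form families with near-identical members, whose fragments cannot be assigned with certainty.

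Bile acid genes were lower in synthesis and uptake. Of 25 genes, 11 were lower and 2 higher, where 8.72% and 20.2% of all genes were. Cyp8b1, which sets the share of cholic acid, had 0.398 FPKM in the tumor, against 42.8 in non-tumor tissue and was 108-fold lower (95% interval 74.3 to 162). The uptake transporter genes Slc10a1, Slco1b2 and Slco1a1 were 9.04-fold lower (95% interval 8.48 to 9.65), 31.2-fold lower (95% interval 28.7 to 34.1) and 104-fold lower (95% interval 63.6 to 182). Abcb11, the export pump, was not called at -0.95. Abcc4, an alternative exporter at the blood side, was 7.75-fold higher (95% interval 6.78 to 8.88). In phase 2 metabolism, 16 of 38 genes were lower and 4 higher, so the share that was higher was below that of all genes. Ugt2b1 was 143-fold lower (95% interval 119 to 173), and Ugt1a1, which conjugates bilirubin, 3.32-fold higher (95% interval 3.23 to 3.41).

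Male-biased liver genes, which follow the pulses of growth hormone in males, had the lowest median of all lists with 5 or more measured genes, at -4.78, with 20 of 23 lower and 0 higher. The 21 records of major urinary protein genes, a secreted pheromone carrier family, summed to 13.7 FPKM in the tumor, against 2051 in non-tumor tissue, with 12191 in the 12M WT, 33.8 in the 2M HKO and 15765.5 in the 2M WT liver. The sum was used because these paralogs are near-identical and 12 of the records lie on alternate scaffolds. The tumor and the 2M HKO liver had the 2 lowest sums. Genes on the Y chromosome lay at a median of 0.52 over 4 genes, with none past -1. Slco1a1 and Elovl3, which are also male-biased, were at -5.78 and -4.78 on the log2 scale, and Cyp2d9, a male-biased gene too, at 0.13.

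Most genes on a list of secreted plasma proteins were near level. Of 23 genes 21 were not called, and the median was -0.10. Alb was 1.25-fold lower and Apoa1 1.44-fold lower, while Fgb of fibrinogen was 1.28-fold higher. Ahsg, which encodes fetuin-A, was the called gene that was higher, with 14646 FPKM in the tumor, against 5203 in non-tumor tissue, and 4648 in the 12M WT, 11487 in the 2M HKO and 6197 in the 2M WT liver. Itih1, of a hyaluronan-linked inhibitor, was the called gene that was lower, with 46.8 FPKM in the tumor, against 224 in non-tumor tissue. Outside this list, the abundant serpin genes Serpina3k and Serpina1e had 1382 and 1589 FPKM in the tumor, against 5479 and 4951 in non-tumor tissue. On a separate complement and coagulation list, 10 of 36 genes were lower and 4 higher, beside 8.72% and 20.2% of all genes. The transcription factor gene Hnf4a had 149 FPKM in the tumor, against 182 in non-tumor tissue, and Cebpa 191 FPKM in the tumor, against 158 in non-tumor tissue, neither of them called. Lcn2, an acute phase protein that binds bacterial siderophores, was 18.3-fold higher (95% interval 17.7 to 19), and Hamp, the iron hormone hepcidin, 24.6-fold lower (95% interval 21.5 to 28.3). Its neighbour Hamp2 was 6.45-fold higher (95% interval 5.24 to 7.99), and the pair are paralogs.

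The fetal growth locus on distal chromosome 7 carried the highest ratios among annotated genes with over 5 FPKM. H19, a noncoding RNA, and Igf2, a fetal growth factor, are imprinted neighbours that share enhancers, at log2 ratios of 9.40 and 9.59. H19 made up 1.89% of all tumor fragments, against 0.00276% in non-tumor tissue, and 0.395% in the 2M HKO liver. An unnamed record beside Igf2, LOC108167467, at chromosome 7 from 142668178 to 142669709, had 153 fragments in the tumor and 0 in the other 4 libraries each. It was at least 49.9-fold higher than in non-tumor tissue at a floor of 3 fragments. Each of the 2 host genes holds a microRNA hairpin, whose mature arms are shown because H19 RNA is their precursor in one case and Igf2 RNA in the other. Bases 2 to 8, the seed, are in capitals, after RefSeq GRCm38.p6 on the - strand of chromosome 7.
mmu-miR-675-5p: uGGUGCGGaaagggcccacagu
mmu-miR-675-3p: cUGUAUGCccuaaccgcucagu
mmu-miR-483-5p: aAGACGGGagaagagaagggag
mmu-miR-483-3p: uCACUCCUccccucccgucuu

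The miR-675 arms lie at chr7:142577112-142577133 and chr7:142577078-142577099, inside the H19 record at chr7:142575530-142578146. The miR-483 arms lie at chr7:142654968-142654989 and chr7:142654932-142654952, inside the Igf2 record at chr7:142650768-142666816. The 4 seeds differ from each other. The hairpins' own records were listed at 0 in both sections, and libraries of long RNA do not measure mature microRNAs, so their levels were not measured here.

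Other genes of the Igf family were called in both directions. Of 16 measured genes of the family, 8 were higher and 2 lower, beside 20.2% and 8.72% of all genes. Igf1, the adult ligand that hepatocytes release under growth hormone, had 4.6 FPKM in the tumor, against 38.2 in non-tumor tissue, and 59 in the 12M WT, 34.2 in the 2M HKO and 69.9 in the 2M WT liver, and was 8.31-fold lower (95% interval 7.83 to 8.81). The binding protein gene Igfbp3 had 593 FPKM in the tumor, against 14.9 in non-tumor tissue, and 10.4 in the 12M WT, 6.97 in the 2M HKO and 8.95 in the 2M WT liver, and so was high in the tumor alone of the 5 libraries. Igfbp1 had 478 FPKM in the tumor, against 31.8 in non-tumor tissue, with a like level of 492 in the 2M HKO liver. Igfbp2 and Igfbp7 were 2.71-fold higher (95% interval 2.66 to 2.76) and 2.17-fold higher (95% interval 2.11 to 2.24). Igfbp4, a further binding protein gene, was not called, with 609 FPKM in the tumor, against 863 in non-tumor tissue. The RNA-binding protein genes Igf2bp2 and Igf2bp3, which bind Igf2 RNA and are known from fetal tissue, had 3.69 and 3.03 FPKM in the tumor, against 0.116 and 0.0261 in non-tumor tissue.

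**Figure D3:**
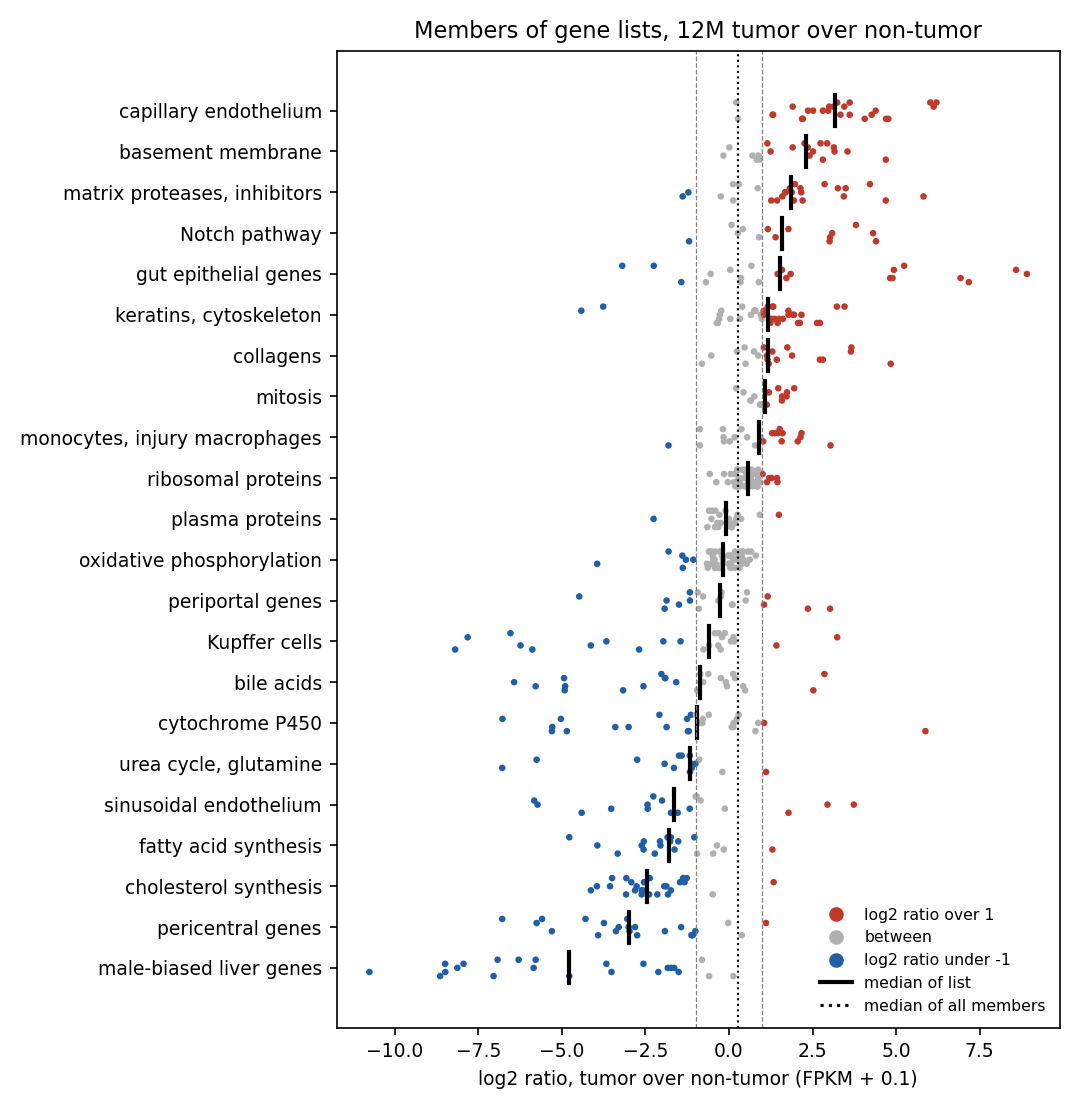
Log2 ratios of tumor over non-tumor tissue for the measured members of 22 gene lists, with 1 point per gene, the median of each list as a bar and the median of all 12063 genes, 0.26, as a dotted line. The 22 were chosen from 71 lists after values were seen, and among them capillary endothelium has the highest median, 3.18, and male-biased liver genes the lowest, -4.78, while plasma proteins and oxidative phosphorylation genes stand near 0.

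The list of oncofetal genes, which is not drawn, had a higher median than any of these, 3.58, with 12 of 15 measured genes higher and 2 lower. It holds genes known from fetal liver and from liver tumors.

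Endothelial genes split by vessel type. Of 26 genes of continuous capillary endothelium and growing vessels, 24 were higher and 0 were lower, and the median log2 ratio was 3.18. Of 18 sinusoidal genes, 11 were lower and 3 higher, with a median of -1.64. The levels of the capillary list summed to 1248 FPKM in the tumor, against 158 in non-tumor tissue, and those of the sinusoidal list to 86.5 FPKM in the tumor, against 125.

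Among the capillary genes, signals of vessel growth stood highest. Apln, the apelin ligand of endothelial tip cells, had 39.2 FPKM in the tumor, against 0.432 in non-tumor tissue, and 0.127 in the 12M WT, 0.299 in the 2M HKO and 0.0545 in the 2M WT liver. Angpt2, a ligand that loosens vessels for sprouting, had 35.2 FPKM in the tumor, against 0.406 in non-tumor tissue, and 0.168 in the 12M WT, 1.59 in the 2M HKO and 0.715 in the 2M WT liver. Pgf, a ligand of the VEGF receptor Flt1, had 17 FPKM in the tumor, against 0.162 in non-tumor tissue, and was 105-fold higher (95% interval 59.7 to 203). Esm1, a marker of tip cells, was 21.8-fold higher (95% interval 18.8 to 25.4). In the other 4 libraries, the ligand genes Apln, Angpt2 and Pgf had at most 1.59 FPKM. The structural genes were higher too. Cdh5, the cadherin of endothelial junctions, had 90.1 FPKM in the tumor, against 9.46 in non-tumor tissue, and 9.42 in the 12M WT, 21.4 in the 2M HKO and 9.58 in the 2M WT liver. Gpihbp1, which holds lipoprotein lipase on capillary walls, had 299 FPKM in the tumor, against 24.4 in non-tumor tissue, and Ly6c1 58 FPKM in the tumor, against 2.03 in non-tumor tissue. The receptor gene Flt1 was 8.29-fold higher (95% interval 7.41 to 9.31), and Dll4, the Notch ligand of tip cells, 21.2-fold higher (95% interval 18.2 to 24.9).

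The lower sinusoidal genes include lectin and scavenger receptors. Clec4g had 0.224 FPKM in the tumor, against 18.3 in non-tumor tissue, and 36.4 in the 12M WT, 37.3 in the 2M HKO and 35.4 in the 2M WT liver. Oit3 had 0.051 FPKM in the tumor, against 7.9 in non-tumor tissue, from 5 and 758 fragments, which is 155-fold lower (95% interval 66.1 to 479). The scavenger receptor gene Stab2 had 0.252 FPKM in the tumor, against 3.95 in non-tumor tissue and was 15.7-fold lower (95% interval 12.4 to 20.1), and Dnase1l3, a secreted nuclease, was 29.2-fold lower (95% interval 21.2 to 41.6). For these 4 genes the other 3 livers all lay above the non-tumor section. Kit and Flt4, receptor genes on the same list that other endothelia also use, were higher instead, with 12.3 and 29 FPKM in the tumor, against 0.833 and 3.68 in non-tumor tissue.

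Defining markers of Kupffer cells had few fragments in the tumor. Clec4f, the lectin that defines these cells, had 1 fragment in the tumor, against 2758 in non-tumor tissue. Its level was 0.0115 FPKM in the tumor, against 32.5 in non-tumor tissue, and 41.3 in the 12M WT, 91.5 in the 2M HKO and 48.5 in the 2M WT liver. From so few fragments the ratio is 2819.9-fold lower with an interval of 506 to 111419. Marco, a scavenger receptor, had 1 fragment in the tumor, against 1796 in non-tumor tissue. The list summed to 666 FPKM in the tumor, against 935 in non-tumor tissue. Vsig4, a complement receptor, had 0.116 FPKM in the tumor, against 16.2 in non-tumor tissue, Folr2 0.063 FPKM in the tumor, against 9.53 in non-tumor tissue, and Cd5l, a secreted macrophage protein, 0.394 FPKM in the tumor, against 45.8 in non-tumor tissue. Of 23 genes on the list, 10 were lower and 2 higher. The higher ones include Cdh5, which endothelium expresses. C1qb, of complement C1q, which most tissue macrophages make, had 102 FPKM in the tumor, against 112 in non-tumor tissue, and was not called.

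The windows of Clec4f and Vsig4 are shown as examples of lower Kupffer genes that hold the motif GGAAGT, and were picked for holding it. Marco and Cd5l, which had lower log2 ratios than Vsig4 (-7.82 and -6.54, against -6.24), have entries without it. The windows lie at chr6:83656067-83656366 and chrX:96293389-96293688, both on the - strand in RefSeq GRCm38.p6. GGAAGT on either strand (ACTTCC on the other), a core that ETS factors such as PU.1 of macrophages bind, is in capitals.
Clec4f: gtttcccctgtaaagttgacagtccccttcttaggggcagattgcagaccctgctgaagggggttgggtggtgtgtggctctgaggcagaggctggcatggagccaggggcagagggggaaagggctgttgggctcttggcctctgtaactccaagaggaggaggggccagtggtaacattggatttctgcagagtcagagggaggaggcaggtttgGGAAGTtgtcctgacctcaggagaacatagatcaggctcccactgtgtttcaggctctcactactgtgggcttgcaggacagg
Vsig4: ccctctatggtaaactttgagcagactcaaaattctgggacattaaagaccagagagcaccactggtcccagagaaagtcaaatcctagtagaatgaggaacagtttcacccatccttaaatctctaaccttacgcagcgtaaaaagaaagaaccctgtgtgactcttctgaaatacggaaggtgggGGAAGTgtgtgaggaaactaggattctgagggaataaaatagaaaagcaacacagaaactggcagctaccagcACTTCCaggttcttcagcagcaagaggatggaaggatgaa

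GGAAGT stood in 10 of 17 Kupffer genes with an entry, against 23.8% of all promoters and 26.5% of all genes, in 8 of 19 capillary and in 4 of 13 sinusoidal genes. Of the 10, 6 were lower in the tumor, beside 10 of the 23 measured genes of the Kupffer list, and a part of the motif in this was not tested.

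Genes of monocytes and of macrophages in injured tissue were in part higher. Of 24 genes, 11 were higher and 1 lower, and the median log2 ratio was 0.90. The tumor was the highest library in 6 of them, where it was so for 45.1% of all genes. Non-tumor tissue was itself called higher than the 12M WT liver in 23 of the 24, against 12.7% of all genes. Mmp12, a macrophage elastase, had 10.1 FPKM in the tumor, against 2.22 in non-tumor tissue, and 0.0233 in the 12M WT, 7.78 in the 2M HKO and 0.0624 in the 2M WT liver. Ms4a7 had 12.1 FPKM in the tumor, against 2.84 in non-tumor tissue, and the lysosomal membrane gene Cd63, which many cells express, 203 FPKM in the tumor, against 45.1 in non-tumor tissue. Ly6c2, a marker of monocytes, was the gene that was lower, with 14 fragments in the tumor, against 56 in non-tumor tissue. The class II antigen gene Cd74 had 1306 FPKM in the tumor, against 190.1 in non-tumor tissue. Of stellate cell genes, Reln and Colec10 were lower, the first with 0.705 FPKM in the tumor, against 6.33 in non-tumor tissue, and the second with 0 fragments in the tumor, against 177 in non-tumor tissue. Rgs5, a pericyte gene, was 8.28-fold higher (95% interval 7.76 to 8.84). Over the 30 stellate and fibroblast genes, 11 were higher and 9 lower. Of 5 measured genes of B and plasma cells, 3 were lower and 0 higher, beside 8.72% and 20.2% of all genes. Among them was the J chain gene Jchain, at 0.448 FPKM in the tumor, against 11.4 in non-tumor tissue. This list summed to 294 FPKM in the tumor, against 263 in non-tumor tissue. The immunoglobulin genes Ighm, Igkc and Iglc2 were listed at 0 in both sections.

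**Figure D4:**
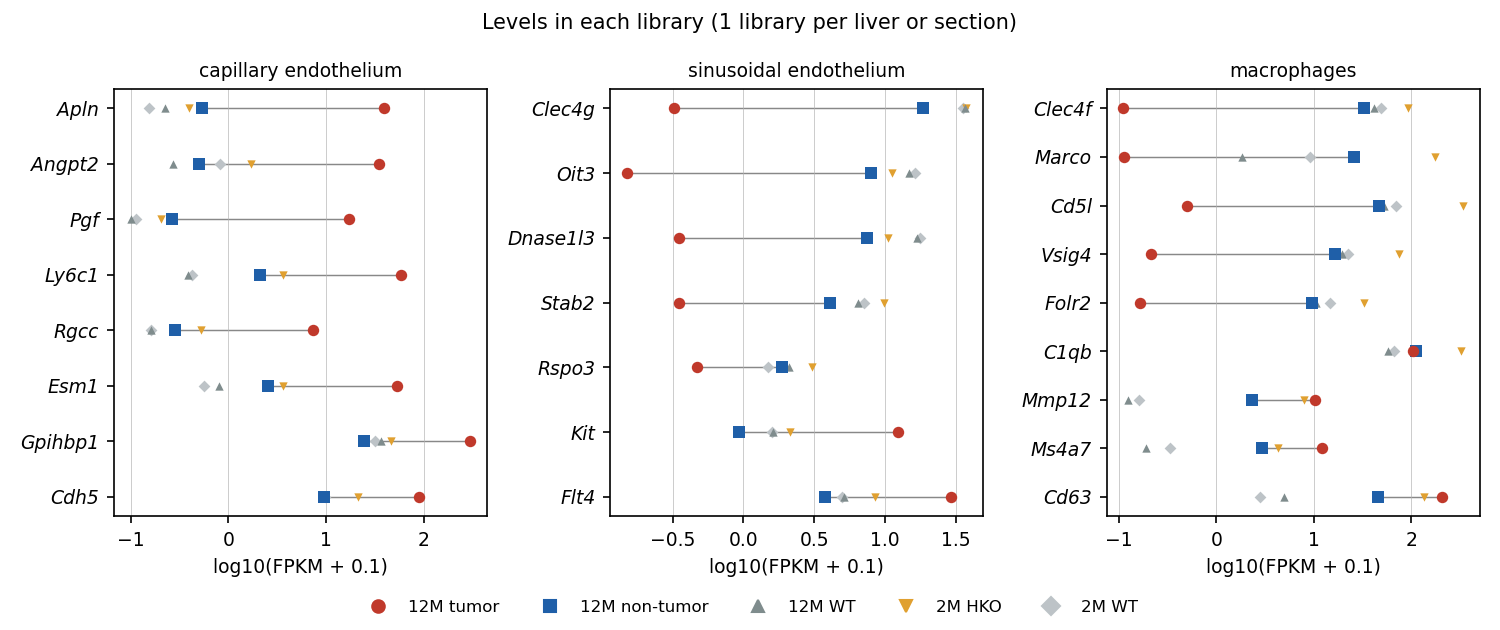
Levels of 8 capillary, 7 sinusoidal and 9 macrophage genes as log10 of FPKM plus 0.1, with 1 symbol per library and a line joining tumor and non-tumor tissue. The tumor is the highest library for all 8 capillary genes, the lowest for Clec4g, Oit3, Dnase1l3, Stab2 and Rspo3, and the lowest for the 5 Kupffer genes at the top of the right panel.

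Basement membrane genes were mostly higher. Of 20 basement membrane genes, 14 were higher and 0 lower, and the median log2 ratio was 2.31, and the tumor was the highest library in 18 of them, where it was so for 45.1% of all genes. Col4a1 and Col4a2, the chains of type IV collagen found in most basement membranes, had 218 and 137 FPKM in the tumor, against 17.3 and 10.7 in non-tumor tissue. They were 12.6-fold higher (95% interval 12.2 to 13) and 12.8-fold higher (95% interval 12.3 to 13.3). Col4a3 had 5.3 FPKM in the tumor, against 0.0888 in non-tumor tissue. The laminin genes Lama4 and Lama5 were 12.3-fold higher (95% interval 11.1 to 13.8) and 9.43-fold higher (95% interval 8.61 to 10.3), Nid2 of nidogen 7.88-fold higher (95% interval 7.21 to 8.64), and Hspg2 of perlecan 7.2-fold higher (95% interval 6.83 to 7.6). Sparc, a collagen-binding protein, had 521 FPKM in the tumor, against 58.2 in non-tumor tissue. The list of 20 collagens had 13 higher and 0 lower, and the median log2 ratio was 1.17, and just under 1 after centring. Of 26 proteases and inhibitors, 19 were higher, among them Timp4, at 36.5 FPKM in the tumor, against 0.549 in non-tumor tissue, and Adamts4, at 5.2 FPKM in the tumor, against 0.185 in non-tumor tissue.

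Ligands, receptors and targets of Notch were higher in the tumor. Of 14 genes, 9 were higher and 1 lower, beside 20.2% and 8.72% of all genes, and the median log2 ratio was 1.59. Of the ligands, Jag2 had 4.57 FPKM in the tumor, against 0.121 in non-tumor tissue and Dll4 29.2 FPKM in the tumor, against 1.38 in non-tumor tissue. The receptor gene Notch3 had 4.91 FPKM in the tumor, against 0.521 in non-tumor tissue. Among targets, Nrarp had 14.4 FPKM in the tumor, against 0.943 in non-tumor tissue and Hey1 11 FPKM in the tumor, against 1.21 in non-tumor tissue. In the tumor they lay above the other 4 libraries. Sox9, a target of Notch in bile duct cells, had 18.4 FPKM in the tumor, against 2.18 in non-tumor tissue. The endothelial list moved with this one, and its part in it was not tested.

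Genes known from gut epithelium were in part higher in the tumor. Of 22 measured genes, 12 were higher and 3 lower, beside 20.2% and 8.72% of all genes. Tm4sf20, a tetraspanin-like gene of gut epithelium, had 655 fragments in the tumor, against 0 in non-tumor tissue, at least 214-fold higher at a floor of 3 fragments. Gpx2, a glutathione peroxidase of the gut, had 56.5 FPKM in the tumor, against 1.75 in non-tumor tissue, and Tff3, a trefoil peptide, 826 FPKM in the tumor, against 230.0 in non-tumor tissue, with 1.62 in the 12M WT liver. Bile duct markers did not go one way, though more were higher. Of 17 measured markers, 10 were higher and 5 lower, with a median log2 ratio of 1.41. Tspan8 and Anxa13 were 26.3-fold higher (95% interval 22.2 to 31.3) and 15.1-fold higher (95% interval 13.2 to 17.3). The duct keratin genes Krt7 and Krt19 had 0.332 and 0.12 FPKM in the tumor, against 5.77 and 4.61 in non-tumor tissue, 17.4-fold lower (95% interval 10.9 to 29.2) and 38.3-fold lower (95% interval 17.3 to 106). Krt8 and Krt18, the keratins that hepatocytes share with ducts, were 2.82-fold higher (95% interval 2.77 to 2.87) and 3.76-fold higher (95% interval 3.69 to 3.83). Cldn2, a claudin of pericentral hepatocytes, was 59.6-fold lower (95% interval 48.2 to 74.6).

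Mitosis genes were in part higher in the tumor, and all of those measured lay below the 2M HKO liver. Of 16 measured mitosis genes, 9 were higher and 0 lower, and the median log2 ratio was 1.07. Of 26 replication genes 4 were higher and 1 lower, at a median of 0.31, which is near that of all genes, and a smaller share was higher than the 20.2% of all genes. Plk1, the polo-like kinase, had 3.3 FPKM in the tumor, against 0.78 in non-tumor tissue, and 0.0771 in the 12M WT, 8.17 in the 2M HKO and 0.0904 in the 2M WT liver. Cdc20 had 4.83 FPKM in the tumor, against 1.54 in non-tumor tissue, and 0.399 in the 12M WT, 15.2 in the 2M HKO and 0.24 in the 2M WT liver. The tumor was the highest library in 0 of the 16 mitosis genes. Inhibitors of the cycle were higher as well. Cdkn1a, which encodes p21, had 66.5 FPKM in the tumor, against 8.13 in non-tumor tissue, and 0.234 in the 12M WT, 15.9 in the 2M HKO and 0.898 in the 2M WT liver, and was 8.17-fold higher (95% interval 7.49 to 8.94). Cdkn2b and Cdkn2a were 5.05-fold higher (95% interval 3.84 to 6.72) and 3.75-fold higher (95% interval 2.66 to 5.4). The tumor was the highest library for all 3 inhibitors.

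Of 19 genes that ERK signaling induces, 13 were higher and 1 lower, beside 20.2% and 8.72% of all genes. Their median log2 ratio was 1.24. The phosphatase genes Dusp4 and Dusp5, which switch ERK-type kinases off, were 9.91-fold higher (95% interval 8.06 to 12.3) and 9.13-fold higher (95% interval 6.13 to 14.1), and the ETS factor gene Etv4 was 13.1-fold higher (95% interval 7.46 to 25.1). Genes of the unfolded protein and integrated stress responses, taken as 1 list, were higher in 9 of 23 cases, where 20.2% of all genes were. Nupr1, a stress-induced chromatin protein, had 61.9 FPKM in the tumor, against 4.07 in non-tumor tissue, and Trib3 26 FPKM in the tumor, against 5.01 in non-tumor tissue. The main chaperone genes of the endoplasmic reticulum, Hspa5 and Hsp90b1, were not called, at 0.48 and -0.04.

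The ratios differed between chromosomes. Medians lay over 0.3 above that of all genes on chromosomes 15, 16 and 17, at 0.91, 0.81 and 0.65, and over 0.3 below it on chromosomes 13 and X, at -0.41 and -0.41. On chromosome 15, 229 of 511 genes (44.8%) were higher and 20 lower. On chromosome 16 it was 139 of 368 (37.8%) and 10. On chromosome 13, 51 of 420 were higher and 86 (20.5%) lower, and on chromosome X 44 of 319 and 74 (23.2%). The same 5 chromosomes stood over 0.3 away with genes past the call left out, and with over 5 FPKM in both libraries.

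The same was seen in genes that every cell uses. Over 148 ribosomal, oxidative phosphorylation and proteasome genes the median was 0.20, with 6 higher and 7 lower. Of the 11 on chromosomes 13 and X, all 11 had a log2 ratio under 0 and 5 were lower. Of the 18 on chromosomes 15, 16 and 17, 16 lay above the median of all genes, but only 2 were called higher. Among genes of the respiratory chain on chromosome 13, Uqcrb and Uqcrfs1 of complex III were at -1.81 and -1.40 on the log2 scale, Sdha of complex II at -1.29 and Ndufs4 of complex I at -1.07. Rpl37 and Rpl30, ribosomal genes of chromosome 15, were at 1.45 and 1.44. The lowest gene of this set, Uqcrc1, at -3.94, has its record on an alternate scaffold, where fragments can be split with the main copy. The genes named here from chromosome 13 are of the respiratory chain and those from chromosome 15 are ribosomal. Over their whole lists, the medians were -0.18 for oxidative phosphorylation and 0.58 for ribosomal genes. Gene class and chromosome thus cannot be told apart in these examples, but other genes of the set cross them. The respiratory chain genes Cox6c, Ndufb9, Ndufa6 and Cyc1 of chromosome 15 were at 0.80, 0.62, 0.57 and 0.43. Ribosomal Rps23 and proteasome Psma2 of chromosome 13 were at -0.38 and -0.85, and ribosomal Rpl10 and Rps4x of chromosome X at -0.57 and -0.15. None of these genes was called, and what sets the chromosomes apart was not tested.

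Several abundant liver genes lay on these chromosomes. On chromosome 16, Ahsg, Kng1 and Fetub, which neighbour each other, had log2 ratios of 1.49, 0.92 and 1.51. On chromosome X, Rgn, a gluconolactonase gene, had 4.93 FPKM in the tumor, against 464 in non-tumor tissue, and Gjb1, the main connexin of hepatocytes, 157 FPKM in the tumor, against 479.6 in non-tumor tissue. On chromosome 13, Akr1c6 had 17.9 FPKM in the tumor, against 539 in non-tumor tissue, and Fbp1, a gluconeogenic enzyme, 115 FPKM in the tumor, against 464 in non-tumor tissue. Copy number was not measured here. After centring by chromosome, the median of the cholesterol synthesis list was -2.43 and that of the capillary endothelium list 2.88.

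**Figure D5:**
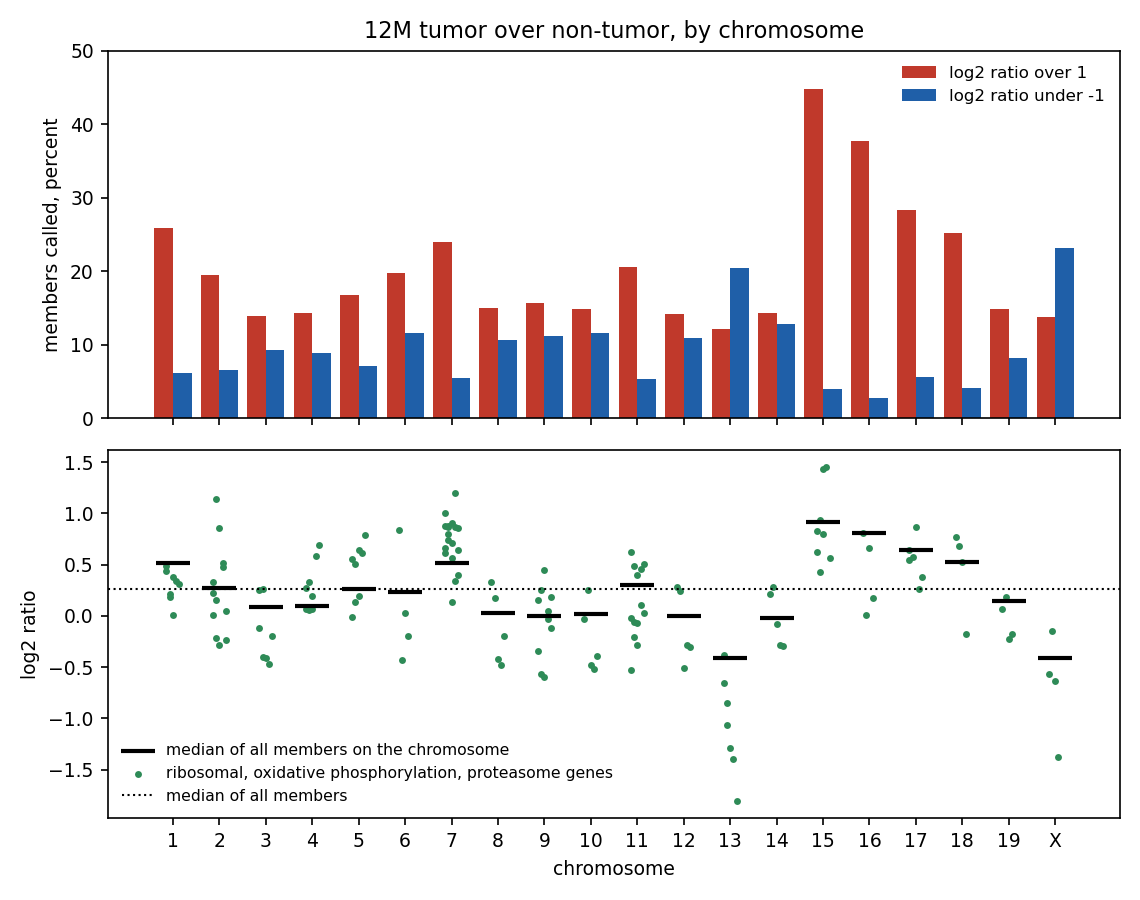
Upper panel, the share of genes called higher and lower in the tumor on each chromosome, in percent. Lower panel, the log2 ratio of tumor over non-tumor tissue, with the median of all genes on the chromosome as a bar and 148 ribosomal, oxidative phosphorylation and proteasome genes as points where they lie on these chromosomes. Chromosomes 15 and 16 have the highest medians, 0.91 and 0.81, and chromosomes 13 and X the lowest, both -0.41.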

How the data were processed

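RNA from liver sections of C57BL/6 mice was extracted with Trizol and sequenced as paired-end Illumina libraries. The FPKM values were deposited by the authors as 1 table of gene records for 5 libraries, with no counts. Per the submitters' processing notes Bowtie 0.12.2 and the build GRCm38 were used, and the gene counter is not given in the sources used here.

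FPKM times gene length fell on whole steps, within 0.01, for 98.7% to 98.8% of values, which gave fragments per gene and library totals of 34969834 to 36104176. Even values made up 58.8% to 61.0% of fragments from 2 to 21, and whether the mates of a pair were counted as 1 is not given in the sources used here. Log2 ratios used FPKM with 0.1 added, for genes with over 1 FPKM in either section. Intervals are exact binomial at 95%, and where a section had 0 fragments the fold was computed against 3. With 1 library per side no count model or test was run.

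Gene lists were described by counts past a log2 ratio of 1 in size and by medians. Members and lists were chosen with earlier results of these data known. Genes were named by rule, and some items are not reported here. The rule takes Srsf2 and Alb, genes the study names in this comparison, the 15 highest and 15 lowest ratios over 5 FPKM, the 10 most abundant genes per library, up to 6 genes of largest ratio per list with those over 100 FPKM, up to 5 abundant genes of chromosomes that stand apart, and up to 5 genes at 0 in a section. Promoter and microRNA sequences came from RefSeq tables of GRCm38.p6. Alternatives changed the minimum, the added value, the scaling, the annotation and the call. The steps were tested on simulated data and run in Python 3.11.15 with numpy 2.4.6, pandas 2.3.3 and scipy 1.17.1, and figures were drawn with matplotlib 3.10.9.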

Additional observations from a re-analysis of the deposited data

How the results depend on the processing

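With no minimum, the tumor had 3884 higher and 1867 lower genes, and with over 5 FPKM in either section 1352 were higher and 642 lower, since more or fewer genes then entered. Under the other alternatives the counts stayed within 1.5 times those reported, between 1729 and 2536 higher and between 788 and 1322 lower, with 1950 and 823 where the whole interval had to lie past a fold of 2. The number of lists with a median past 1 in size was 26 as reported and 18 to 30 otherwise, and 5 chromosomes stood apart in each setting run. Among lists with a reported median past 1 in size, 3 changed sign. B and plasma cells had 0.25 over 5 FPKM, and with no minimum dendritic cells had -0.21 and female-biased liver genes -0.51, with fewer or more genes in each. Changes of sign in lists with medians nearer 0 were not counted. Depth limits genes with few fragments, such as Clec4f in the tumor. No paired analysis was possible because each side holds 1 library, so the spread between animals or tumors is unknown.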

Other observations

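A list of 33 imprinted genes, H19 and Igf2 included, was drawn up after values had been seen. Of these, 15 were over 1 FPKM in either section. Of the 15, 9 were higher in the tumor and 0 lower, beside 20.2% and 8.72% of all genes, with a median log2 ratio of 1.32. Under that minimum, imprinted genes lay in both directions. Cdkn1c and Plagl1 had log2 ratios of -2.02 and -1.36, and Meg3 and Mirg had 2.90 and 2.17. Phlda2, a growth inhibitor of the placenta, had 9.04 FPKM in the tumor, against 2.14 in non-tumor tissue. Mest, of a hydrolase-like protein, had 18.3 FPKM in the tumor, against 2.36 in non-tumor tissue. Grb10, an adaptor that dampens insulin signaling, had 4.55 FPKM in the tumor, against 1.21 in non-tumor tissue. The imprinted receptor gene Igf2r, which clears Igf2, was not called, with 4.47 FPKM in the tumor, against 6.07 in non-tumor tissue, on a record of an alternate scaffold, where fragments can be split with the main copy.

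Of 17 measured clock genes, 3 were higher, 3 lower and 11 not called, with a median log2 ratio of -0.61, so the share that was higher was below that of all genes. Arntl and Npas2, which drive the clock, had 7.82 and 2.89 FPKM in the tumor, against 1.56 and 0.257 in non-tumor tissue. Their output gene Dbp had 11.6 FPKM in the tumor, against 56.2 in non-tumor tissue, and the repressor gene Ciart 0.138 FPKM in the tumor, against 3.44 in non-tumor tissue. Both sections come from 1 animal, and the time of sampling is not given for either.

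Of 24 measured genes of a glycolysis list, some of them abundant in WT liver too, 10 were higher and 2 lower. Among all genes, 20.2% were higher and 8.72% lower. Hk1, a hexokinase, had 7.52 FPKM in the tumor, against 1.99 in non-tumor tissue, and Pkm, a pyruvate kinase, 85 FPKM in the tumor, against 21.5 in non-tumor tissue. Psat1, of serine synthesis, had 6.29 FPKM in the tumor, against 0.432 in non-tumor tissue, and Phgdh, which opens that pathway, 2.71 FPKM in the tumor, against 0.409 in non-tumor tissue. Mat1a, the hepatocyte enzyme that makes S-adenosylmethionine, had 133 FPKM in the tumor, against 689 in non-tumor tissue.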
